A study of Mus musculus with 10 samples.

Results

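The lipid-handling macrophage genes are 10 genes known from lipid-associated macrophages of tumors: Trem2, Apoe, Lpl, Fabp4, Fabp5, Gpnmb, Spp1, Cd36, Msr1 and Lgals3. They were chosen by name and not by a rule on any value measured here, though with earlier results of these data known. All 10 had a value among the 17606 genes to which the deposited transcript models could be assigned. Macrophages take up lipid from dying cells and lipoproteins through scavenger receptors, break it down in lysosomes, carry the fatty acids bound to small cytosolic proteins and release sterol onto lipoprotein particles. TREM2 is a surface receptor that binds lipids and apolipoproteins and signals through the adaptor TYROBP, and macrophages of tumors, atherosclerotic plaques and obese fat are known for high levels of this receptor together with GPNMB, osteopontin (the product of Spp1) and galectin-3 (the product of Lgals3). In the spleen, the macrophages of the red pulp clear old red cells.

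Messenger RNA was sequenced in 10 libraries of cells sorted by flow cytometry from wild-type C3H/HeN females that carried tumors of SCC7, a mouse squamous carcinoma line with which the labels model head and neck cancer. The sorted cells are labelled EPC, an abbreviation that the labels do not spell out, and their staining for CD45, a phosphatase on the surface of leukocytes, divided them into 3 groups: splenic CD45- cells (n = 3), splenic CD45+ cells (n = 3) and tumor CD45+ cells (n = 4). All groups therefore share the strain, the genotype and the presence of a tumor, and no group comes from a mouse without one. Neither the age of the mice, nor the gate beyond CD45, nor whether a library holds the cells of 1 mouse or of several is stated in the labels. The p-values therefore reflect the spread among these libraries alone, and that spread may be technical. Levels are given in FPKM, fragments scaled by transcript length and by the number of mapped fragments, summed over the transcript models of a gene. No header or label names this unit, which was read from the values.

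The FPKM values implied between 17700000 and 20200000 fragments per library. The labels were checked against defining markers. In the tumor libraries, the erythroid transcription factor gene Klf1 (0.09 to 0.45 FPKM) was near 0, whereas 18 macrophage and monocyte markers summed to between 27444 and 48718 FPKM. These markers summed to 1421 to 4611 FPKM in splenic CD45+ and 67.3 to 123 FPKM in splenic CD45- libraries. Lyz2 alone held 11438 to 29160 FPKM of the tumor sums and 1276 to 3302 FPKM of the splenic CD45+ sums. The macrophage markers Csf1r and Adgre1 stood at 254 to 305 and 179 to 236 FPKM in tumor libraries. In splenic CD45+ libraries they stood at 9.39 to 201 and 2.27 to 46.7 FPKM. In bulk samples, fewer cells of a type and less RNA per cell cannot be told apart. Splenic CD45+ replicate 2 and tumor replicate 1 stood apart from the rest of their groups. The median squared difference between replicates, divided by the counting noise, was 79.7 and 91.9 between splenic CD45+ replicate 2 and its group, 8.8 to 11.3 between tumor replicate 1 and its group, and 1.15 to 2 among tumor replicates 2, 3 and 4. The last 3 libraries thus differed by little more than counting noise, and values with these 3 averaged into 1 are given where they change a call.

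The tumor CD45+ cells carried far more RNA of Spp1, Trem2, Msr1 and Lgals3 than the splenic cells with the same CD45 gate, while Apoe, Lpl, Fabp4 and Cd36 did not pass the test. Differences were tested with limma on log2(FPKM + 1) over every gene that reached 1 FPKM in 3 or more of the compared libraries, and a gene was called at a Benjamini-Hochberg adjusted p below 0.05. All 10 members passed the filter in this comparison, Gpnmb through the tumor libraries alone, so that it could differ in 1 direction only. Against splenic CD45+ cells, 6 members were called higher and 0 lower in tumor CD45+ cells. Among all 11464 genes tested, 37.7% were called higher and 26% lower. Each of the 6 was higher in every tumor library than in every splenic CD45+ library, an order that 38.4% of all genes showed, and none lay below, an order shown by 28.1% of all genes. The median log2 difference of the members was 2.41, beside 0.2 for all genes. The largest differences were those of Spp1 (log2 9.32 ± 0.31 (SE), adjusted p = 3.95e-07), Trem2 (7.66 ± 0.32, adjusted p = 9.95e-07) and Msr1 (6.97 ± 0.42, adjusted p = 5.80e-06).

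**Figure D1:**
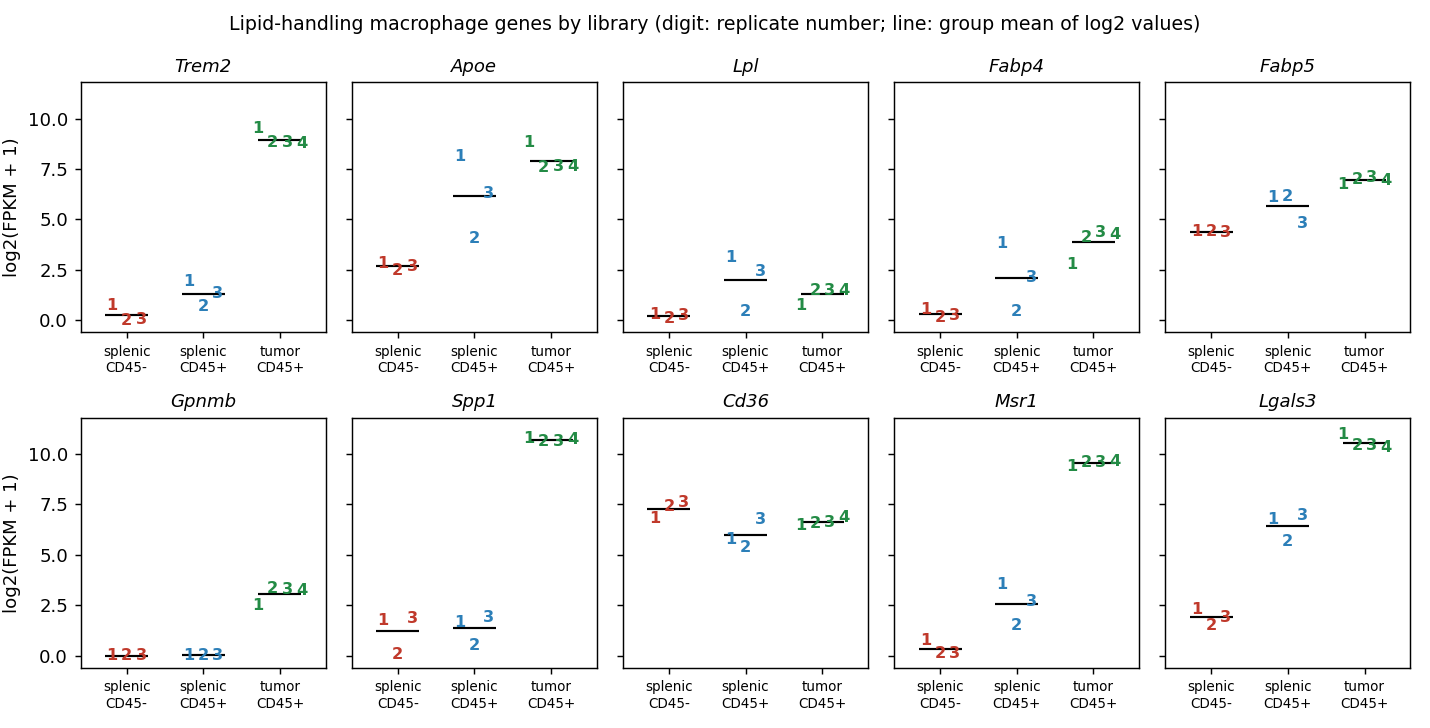
Level of each of the 10 genes as log2(FPKM + 1) in every library, with digits for replicate numbers and a line at the group mean of the log2 values. Trem2, Fabp5, Gpnmb, Spp1, Msr1 and Lgals3 lie highest in the 4 tumor CD45+ libraries without overlap, whereas Apoe, Lpl, Fabp4 and Cd36 overlap between tumor and splenic CD45+ libraries.

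Within the spleen, the CD45+ cells held more Lgals3, Apoe, Msr1 and Fabp5 and less Cd36 than the CD45- cells. Only 6 of the 10 members could be tested, since Trem2, Lpl, Fabp4 and Gpnmb did not reach 1 FPKM in 3 of the 6 splenic libraries. Of the 6, 4 were called higher and 1 lower in CD45+ cells, and Spp1 was not called. Of all 9729 genes tested, 50.5% were called higher and 5.02% lower, so a call of a higher level was common in this comparison. Msr1 entered through the CD45+ libraries alone. Among the 10 members, 5 were higher in every CD45+ library than in every CD45- library (Apoe, Lpl, Fabp5, Msr1 and Lgals3) and Cd36 was lower in every one. Of the genes tested, 58.9% and 7.24% showed these orders, but Lpl was not among the genes tested. The median log2 difference of the tested members was 1.77, beside 0.67 for all genes. Markers of other cells moved with this comparison too. All 14 granulocyte markers were higher in CD45+ cells (sums of 394 to 529 FPKM in CD45- and 23296 to 77904 FPKM in CD45+ libraries), as were all 8 B cell markers (25.6 to 32.1 and 149 to 1348 FPKM), 8 of 9 T and NK cell markers tested and 10 of 13 macrophage and monocyte markers tested. Through the CD45+ libraries alone entered 3 of these granulocyte, 3 B cell, 5 T and NK cell and 2 macrophage and monocyte markers. Of 12 erythroid markers, 11 were lower (326272 to 416872 and 129475 to 276583 FPKM). Their part in the differences of the members was not tested.

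Tumor CD45+ and splenic CD45- cells differ in tissue and in CD45 gate together, and the part of each cannot be told apart. All members but Cd36 were called higher in the tumor cells, 9 in number, and Cd36 was called lower. In this comparison 90% of 11209 genes were called, 67.5% higher and 22.5% lower. Trem2, Lpl, Fabp4, Gpnmb and Msr1 entered it through the tumor libraries alone. The same 9 members lay above every splenic CD45- library in every tumor library, as did 66.5% of all genes, and no member lay below every one, as 22.2% of all genes did. The 3 comparisons share libraries by pairs, so their values are set side by side below and are not independent of each other.

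**Figure D2:**
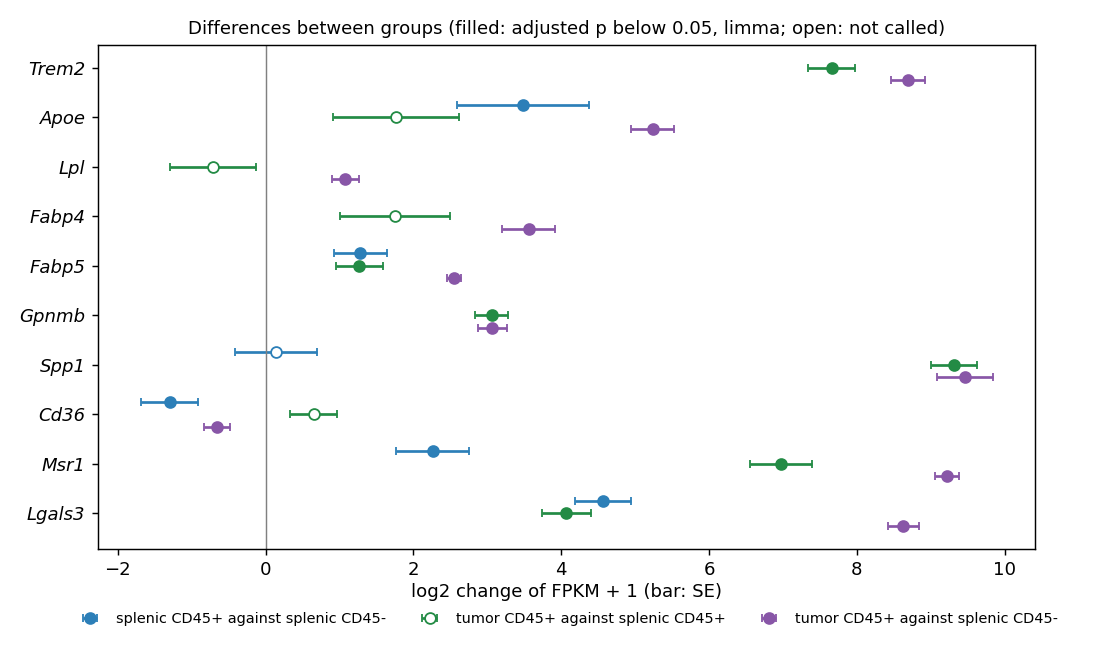
Log2 difference of FPKM + 1 with its standard error for the 10 genes in the 3 comparisons. Filled symbols are called at an adjusted p below 0.05 and a missing symbol was not tested. The tumor differences of Spp1 (9.32), Trem2 (7.66) and Msr1 (6.97) from splenic CD45+ cells lie far to the right, and Cd36 lies at -1.3 and -0.66 in the comparisons with splenic CD45- cells.

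Among the receptors, Trem2 lies on chromosome 17 (48346401 to 48352276, GRCm38.p6). Its level was 0.68, 0 and 0.04 FPKM in splenic CD45- replicates 1 to 3 and 2.78, 0.58 and 1.52 FPKM in splenic CD45+ replicates 1 to 3. In tumor replicates 1 to 4 it was 717, 446, 446 and 429.5 FPKM. Every tumor library thus lay at least 2 orders of magnitude above every splenic library, and tumor replicate 1 was the highest of its group. The ratio of the tumor mean (510 ± 139 FPKM (SD, n = 4)) to the splenic CD45+ mean (1.63 ± 1.1 FPKM (SD, n = 3)) was 313. The difference from splenic CD45- cells was log2 8.69 ± 0.23 (SE; adjusted p = 1.19e-09). Both Trem2 models stand in the tables a second time as numbered copies with identical values, which were summed. Without the copies each level would be divided by 2, and the log2 difference between tumor and splenic CD45+ cells is 7.15 ± 0.27 (adjusted p = 6.06e-07). The model NM_031254 took 87.3% to 91.2% of Trem2 in the tumor libraries, and NM_001272078 took the rest.

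Msr1 (chromosome 8, 39543232 to 39642750), which encodes the class A scavenger receptor for modified lipoproteins, had 0.66, 0.08 and 0.08 FPKM in the splenic CD45- libraries, in replicate order. The splenic CD45+ libraries had 10.6, 1.85 and 5.38 FPKM. The tumor libraries had 671, 764, 755 and 792 FPKM. The 3 groups did not overlap and rose in that order. Between tumor and splenic CD45+ cells the ratio of means was 125, and between splenic CD45+ and CD45- cells the difference was log2 2.26 ± 0.49 (adjusted p = 0.00669). Without any 1 of the splenic CD45+ libraries, Msr1 did not pass the filter in the comparison within the spleen. The models NM_031195 and NM_001113326 were both abundant in the tumor libraries, at 340 to 393 and 261 to 328 FPKM.

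Gpnmb (chromosome 6, 49036518 to 49058182), which encodes a lysosomal and surface glycoprotein of macrophages, was close to the limit of detection in the spleen. The CD45- libraries had 0, 0 and 0.01 FPKM and the CD45+ libraries 0.02, 0 and 0.02 FPKM. At this depth and for a transcript of 3701 bases, a value of 0 allows up to 0.0437 to 0.0456 FPKM, the worth of 3 fragments, a limit that covers counting error only. The tumor libraries had 4.54, 8.92, 8.86 and 8.41 FPKM, which stand for about 333 to 654 fragments. All 4 lay above every splenic library, with replicate 1 the lowest. On the log2(FPKM + 1) scale, where differences of low genes appear too small, the difference from splenic CD45+ cells was 3.06 ± 0.22 (adjusted p = 1.58e-05). Gpnmb thus had the same direction as Trem2 at a level lower by more than an order of magnitude.

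Cd36 (chromosome 5, 17781690 to 17888959) encodes a scavenger receptor and fatty acid translocase that macrophages share with platelets, endothelium, fat cells and red cell precursors. It was the only member with its highest group mean in splenic CD45- cells, where it had 111, 167 and 194 FPKM. Splenic CD45+ libraries had 53.1, 40.2 and 109 FPKM and tumor libraries 87.8, 91.8, 96.8 and 113 FPKM. The splenic groups did not overlap, narrowly, and tumor values overlapped with both. The test called Cd36 lower in splenic CD45+ than in splenic CD45- cells (log2 -1.3 ± 0.39, adjusted p = 0.0236), a call lost without splenic CD45- replicate 2 (adjusted p = 0.0746) or 3 (0.0814), without splenic CD45+ replicate 1 (0.0717) and with no filter on low values (0.0518). The tumor difference from splenic CD45+ cells (0.65 ± 0.32, adjusted p = 0.108) was called without splenic CD45+ replicate 3 (1.05 ± 0.18, adjusted p = 0.00354). The tumor difference from splenic CD45- cells (-0.66 ± 0.18, adjusted p = 0.0076) became -0.01 (adjusted p = 0.952) when each library was scaled to the same sum.

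The summed level of Cd36 was made up of different transcript models in the 3 groups, described here without a test. Of the 11 Cd36 models listed, XM_006535625 and XM_030254088 together held 96.7%, 97.1% and 97.4% of Cd36 in the splenic CD45- libraries (107, 162 and 189 FPKM). They held 70.2%, 96.9% and 88.2% in splenic CD45+ replicates 1 to 3 (37.2, 39 and 95.9 FPKM). In all 4 tumor libraries both were listed at 0, and the other 9 models held all of Cd36 (87.8, 91.8, 96.8 and 113 FPKM). Most of this was XM_006535621, at 56, 57.4, 62.2 and 76.7 FPKM, a model listed at 0 in every splenic CD45- library and at 9.25, 0 and 4.69 FPKM in splenic CD45+ libraries. Beside it, the erythroid marker Klf1 stood at 704 to 788 FPKM in splenic CD45-, 271 to 613 FPKM in splenic CD45+ and 0.09 to 0.45 FPKM in tumor libraries, and Csf1r at 2.59 to 3.07, 9.39 to 201 and 254 to 305 FPKM. The part of either cell type in the choice of model was not tested. The labels do not state how fragments were divided between overlapping models, an exact 0 for a model can be a failed estimate, and where the models differ was not analysed here.

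**Figure D3:**
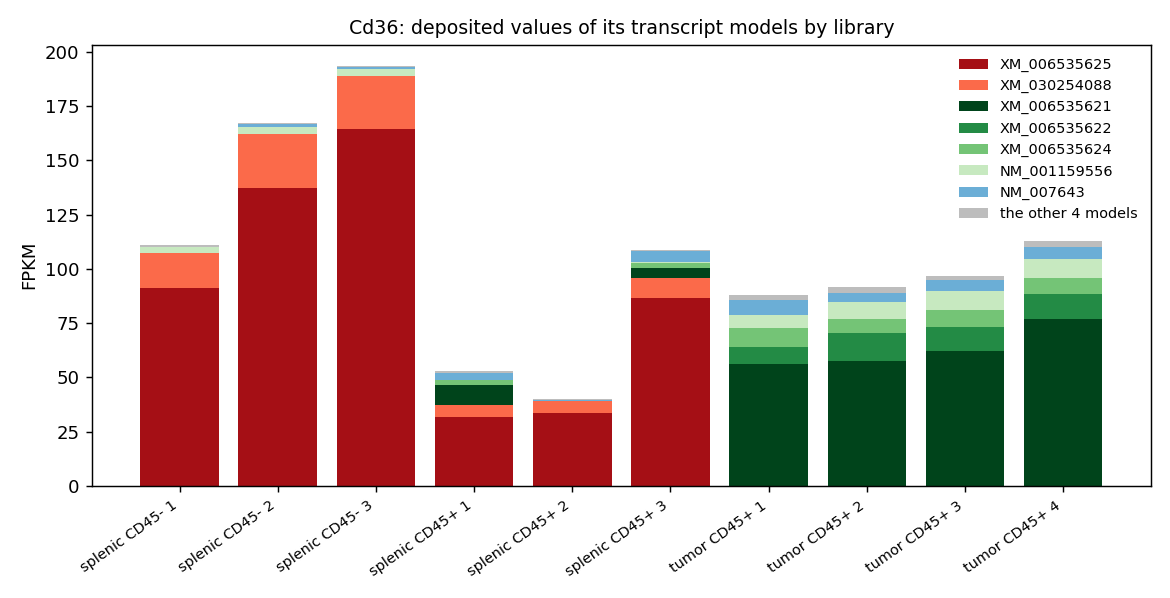
FPKM of the Cd36 transcript models in each library, stacked to the summed level of the gene. The red models XM_006535625 and XM_030254088 hold 96.7% to 97.4% of Cd36 in splenic CD45- libraries and 0 in tumor CD45+ libraries, where the green model XM_006535621 holds 56 to 76.7 FPKM.

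Among the secreted members, Spp1 (chromosome 5, 104435111 to 104441053) encodes osteopontin, a phosphoprotein that binds integrins and CD44. Splenic CD45- libraries had 2.35, 0.03 and 2.57 FPKM and splenic CD45+ libraries 2.16, 0.42 and 2.71 FPKM, which overlapped fully. The tumor libraries had 1730.3, 1549, 1562 and 1689 FPKM, above 99.4% or more of all genes in each. The ratio of the tumor mean to the splenic CD45+ mean was 926, the largest of the members with more than a few fragments in both groups. Within the spleen the difference was 0.14 ± 0.56 (adjusted p = 0.846) and its sign changed with the scaling and with the libraries kept. In the tumor libraries, NM_001204203 accounted for 1382 to 1492 FPKM of Spp1 and NM_001204201 for most of the rest.

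Lgals3 (chromosome 14, 47373860 to 47386167) encodes galectin-3, a sugar-binding protein that is secreted and also found in the cytosol. It had 3.86, 1.82 and 2.75 FPKM in splenic CD45- libraries. Splenic CD45+ libraries had 109, 48.9 and 122 FPKM and tumor libraries 1988, 1363, 1366 and 1285 FPKM. Lgals3 therefore rose in both steps, from splenic CD45- to splenic CD45+ cells by log2 4.56 ± 0.38 (adjusted p = 5.14e-04) and from splenic to tumor CD45+ cells by 4.07 ± 0.33 (adjusted p = 2.95e-05). The groups did not overlap. Lgals3 was called in all 16, 19 and 18 alternative analyses of the 3 comparisons, with differences of 4.08 to 4.97, 3.52 to 4.34 and 8.13 to 9.17.

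Apoe (chromosome 7, 19696244 to 19701310), the lipoprotein component that binds the LDL receptor family and TREM2, overlapped between the CD45+ groups. Splenic CD45- libraries had 6.12, 4.6 and 5.45 FPKM, and tumor libraries had 447, 191, 199 and 195 FPKM. The splenic CD45+ libraries ranged from 15.5 FPKM in replicate 2 through 76.2 in replicate 3 to 282 FPKM in replicate 1, so that the highest lay above 3 of the tumor libraries. Apoe was called higher in splenic CD45+ than in CD45- cells (log2 3.48 ± 0.89, adjusted p = 0.0126). Its tumor difference from splenic CD45+ cells, 1.76 ± 0.85 (adjusted p = 0.105), was not called. That difference was 2.76 without splenic CD45+ replicate 1 (adjusted p = 0.00804) and 0.71 without splenic CD45+ replicate 2 (adjusted p = 0.276). NM_009696 held nearly all of Apoe in every library.

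Lpl (chromosome 8, 68880555 to 68906932) encodes lipoprotein lipase, which frees fatty acids from triglyceride-rich particles. It was low in every library and highest in 2 of the splenic CD45+ libraries. Splenic CD45- libraries had 0.2, 0.08 and 0.19 FPKM, splenic CD45+ libraries 7.79, 0.36 and 4.4 FPKM, and tumor libraries 0.66, 1.79, 1.81 and 1.77 FPKM. For its transcript of 4115 bases these values stand for 27.5 to 567 fragments in splenic CD45+ and 53.8 to 147 in tumor libraries. The tumor libraries lay inside the splenic CD45+ range, and the difference was -0.71 ± 0.58 (adjusted p = 0.311). Without splenic CD45+ replicate 2 the difference was -1.49 ± 0.28 and Lpl was called lower in the tumor cells (adjusted p = 0.002). Against splenic CD45- cells Lpl was called higher in the tumor cells (1.08 ± 0.18, adjusted p = 3.85e-04), although no tumor library reached 2 FPKM.

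The cytosolic carriers Fabp4 (chromosome 3, 10204342 to 10208616) and Fabp5 (chromosome 3, 10012585 to 10016610) lie in the same region of the genome and bind long-chain fatty acids. Fabp4, the form typical of fat cells and macrophages, had 0.47, 0.1 and 0.17 FPKM in splenic CD45- libraries, 12.8, 0.36 and 3.34 FPKM in splenic CD45+ libraries and 5.78, 16.1, 19.8 and 18 FPKM in tumor libraries. The last groups overlapped through splenic CD45+ replicate 1 and tumor replicate 1. The difference of 1.75 ± 0.75 (adjusted p = 0.0724) was not called, and it was called at 2.59 ± 0.6 without splenic CD45+ replicate 1 (adjusted p = 0.00776). Fabp5, the epidermal form, was present everywhere. It had 20.3, 19.99 and 19.4 FPKM in splenic CD45- libraries, 66.6, 68.3 and 27.1 FPKM in splenic CD45+ libraries and 107, 124.9, 132 and 122 FPKM in tumor libraries. Its groups rose in that order without overlap, by 1.28 ± 0.36 (adjusted p = 0.0176) and 1.27 ± 0.32 (adjusted p = 0.00894). The first of these calls was lost without any single splenic CD45- library (adjusted p 0.0538 to 0.0588) or without splenic CD45+ replicate 1 (0.0604), and the second when tumor replicates 2 to 4 were averaged into 1 (0.0749) or the globin genes were removed before scaling (0.0563).

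Promoters are shown for 3 members that were low in the spleen and called higher in the tumor, 2 of them abundant there and Gpnmb at 4.54 to 8.92 FPKM. RefSeq windows from 250 bases before to 50 bases after a transcript start (GRCm38.p6, plus strand of the genome for these 3 genes) were at hand for 6 of the 10 members, and those of Trem2 (chr17:48346151-48346450), Gpnmb (chr6:49036268-49036567) and Spp1 (chr5:104434861-104435160, the window at the gene's outer start) are printed 5′ to 3′ with motif matches in capitals.
Trem2: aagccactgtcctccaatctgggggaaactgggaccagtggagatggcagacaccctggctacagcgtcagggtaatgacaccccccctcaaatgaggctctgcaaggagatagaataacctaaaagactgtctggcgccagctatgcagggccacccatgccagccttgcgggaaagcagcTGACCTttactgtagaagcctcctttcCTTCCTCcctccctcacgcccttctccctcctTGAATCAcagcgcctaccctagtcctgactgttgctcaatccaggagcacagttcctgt
Gpnmb: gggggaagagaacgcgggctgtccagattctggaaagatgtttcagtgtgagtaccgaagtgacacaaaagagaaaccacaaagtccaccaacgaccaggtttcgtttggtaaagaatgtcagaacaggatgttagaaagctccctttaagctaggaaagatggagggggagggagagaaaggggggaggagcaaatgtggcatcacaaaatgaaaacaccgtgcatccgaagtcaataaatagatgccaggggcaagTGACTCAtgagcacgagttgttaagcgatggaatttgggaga
Spp1: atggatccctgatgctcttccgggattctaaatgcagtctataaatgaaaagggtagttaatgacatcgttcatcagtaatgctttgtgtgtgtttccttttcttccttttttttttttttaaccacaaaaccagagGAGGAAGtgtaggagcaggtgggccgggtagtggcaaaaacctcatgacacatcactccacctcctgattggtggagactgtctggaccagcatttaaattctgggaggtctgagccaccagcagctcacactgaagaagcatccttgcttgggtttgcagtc
Searched on both strands were an AP-1 motif (TGANTCA), a PU.1 motif (GAGGAAG), a nuclear receptor motif (AGGTCA), an E-box of the MiT/TFE family (TCACGTGA or TCACATGA) and an erythroid GATA motif (AGATAAG). Counted with the start base as 0, the Trem2 window held the AP-1 letters at -9 to -3, the PU.1 letters on the reverse strand at -41 to -35 and the nuclear receptor letters on the reverse strand at -68 to -63. The Gpnmb window held the AP-1 letters at 8 to 14 and the Spp1 window the PU.1 letters at -113 to -107. None of these matches overlap each other. Of 32851 RefSeq windows of the same length, 7.81% held the AP-1 letters, 13.6% the PU.1 letters, 16.3% the nuclear receptor letters, 1.94% the E-box and 3.04% the GATA letters. A match in letters does not show that a factor binds there.

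Splenic CD45+ libraries differed among themselves in several members. Trem2, Apoe, Lpl, Fabp4 and Msr1 had replicate 1 highest and replicate 2 lowest, as did the macrophage receptor gene Csf1r, at 201, 9.39 and 40.5 FPKM in replicates 1 to 3. This order was not particular to macrophage genes. The summed B cell markers (1348, 149 and 1215 FPKM), T and NK cell markers (357, 59.4 and 294 FPKM) and dendritic cell markers (114, 8.38 and 42.6 FPKM) shared it. The sums of granulocyte markers and of mast cell and basophil markers had replicate 3 highest. Lgals3 had replicate 3 highest, Fabp5 replicate 2 and Cd36 replicate 3. A ratio to Csf1r, a comparison chosen after the values had been seen, is given as a description only. Apoe was 1.4, 1.65 and 1.88 times Csf1r in splenic CD45+ libraries and 1.47, 0.753, 0.773 and 0.749 times in tumor libraries. Relative to Csf1r, Trem2 stood at 0.0138 to 0.0618 in splenic CD45+ and 1.65 to 2.35 in tumor libraries. The ratio of Spp1 was 0.0107 to 0.067 and 5.68 to 6.47, that of Msr1 0.0527 to 0.197 and 2.2 to 3.04. Lgals3 overlapped, at 0.54, 5.2 and 3.03 in splenic CD45+ and 4.93 to 6.52 in tumor libraries. Fabp5 overlapped as well, at 0.331, 7.27 and 0.669 in splenic CD45+ and 0.352 to 0.515 in tumor libraries. Cd36 stood at 0.264, 4.28 and 2.69 and at 0.288 to 0.432. Lpl went the other way, from 0.0383 to 0.109 in splenic CD45+ libraries to 0.00217 to 0.00706 in tumor libraries. Fabp4 overlapped at 0.0383 to 0.0826 and 0.019 to 0.0769.

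**Figure D4:**
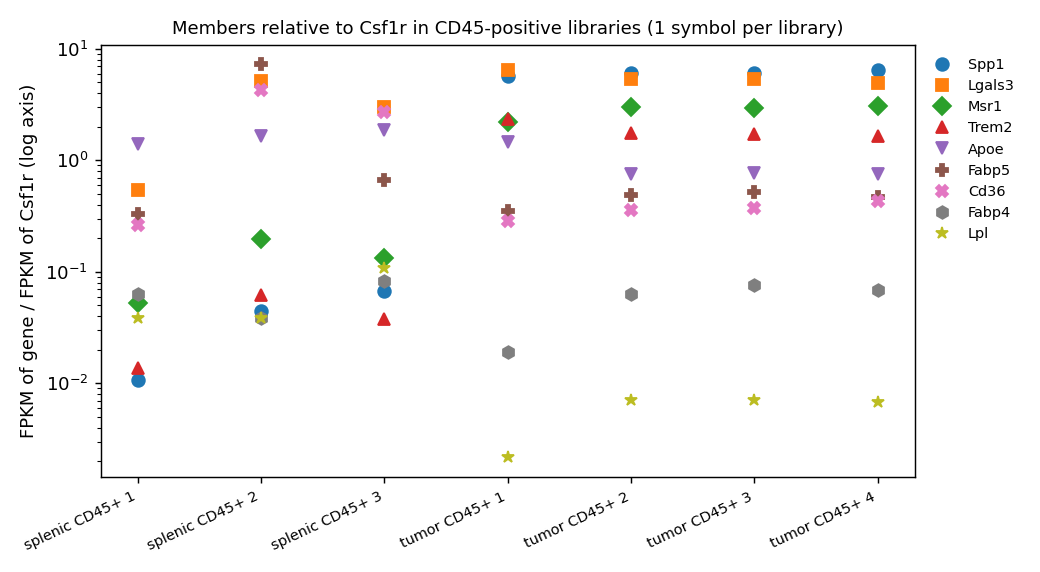
Ratio of each member's FPKM to that of Csf1r on a log axis in the 3 splenic CD45+ and 4 tumor CD45+ libraries, with Gpnmb left out because it was at 0 in a splenic library. Spp1, Msr1 and Trem2 lie at 1.65 or more in every tumor library and below 0.2 in every splenic CD45+ library, Apoe stays between 0.749 and 1.88, Lgals3, Fabp5, Cd36 and Fabp4 overlap between the groups, and Lpl is at 0.00706 or less in the tumor.

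Markers of other cells moved with the members, and their part in the differences was not tested. Against splenic CD45+ cells, 17 of 18 macrophage and monocyte markers were higher in the tumor cells and 0 lower (median log2 4.18), led by Ms4a7 (7.39) and Cd14 (5.98). All 14 granulocyte markers were lower (sums of 23296 to 77904 against 69.8 to 1774 FPKM), as were all 11 erythroid markers tested, of 12 (sums of 129475 to 276583 against 6001 to 40981 FPKM). Lower as well were all 8 B cell markers (sums of 149 to 1348 against 7.23 to 9.52 FPKM), 7 of 9 T and NK cell markers tested (59.4 to 357 against 6.03 to 44.7 FPKM), 4 of 5 dendritic cell markers tested (8.38 to 114 against 6.35 to 13.6 FPKM) and 4 of 6 mast cell and basophil markers tested, with 1 higher (35.9 to 156 against 4.58 to 5.71 FPKM). That 1 higher marker entered through the tumor libraries alone. Of 4 platelet markers tested, Pf4 (log2 8.29) and Ppbp (2.64) were higher and Gp9 (-3.65) and Itga2b (-1.43) lower. Of 8 red pulp macrophage markers, 3 were lower and 1 higher, with Cd5l at 3.42 to 105 FPKM in splenic CD45+ and 0.14 to 0.35 FPKM in tumor libraries. Osteopontin, galectin-3 and FABP5 are also made by carcinoma cells. Of 11 epithelial and carcinoma markers, 3 passed the filter, all through the tumor libraries alone, so that they could differ in 1 direction only. They were higher in the tumor, Krt8 at 208 to 239 FPKM and Krt18 at 95.4 to 164 FPKM among them. Krt5 and Krt14, the keratins of the basal squamous layer, were at or below 0.13 FPKM and Epcam at or below 0.04 FPKM there. Stroma markers, 11 in number, summed to 382 FPKM or more in each tumor library, to 21.8 to 80.3 FPKM in splenic CD45+ and to 1.11 to 2.93 FPKM in splenic CD45- libraries. In the tumor, Fn1 held 169 to 241 FPKM of these sums and Col3a1 70.4 to 110 FPKM. The splenic CD45+ sums were mostly Fn1 (16.6 to 35.4 FPKM) and Thy1 (4.4 to 31 FPKM), with Col3a1 at 0.01 to 0.04 FPKM. For Fabp4, Lpl and Cd36, the 7 adipocyte markers with a value summed to 2.84 FPKM or less in every library and none was tested, and 10 endothelial markers summed to 10.3 to 41.6 FPKM in splenic CD45+ and 10.9 to 14.4 FPKM in tumor libraries. Pecam1, which leukocytes also express, made up 36.5, 3.21 and 18.5 FPKM of the splenic CD45+ sums and was lower in the tumor (log2 -2.3). Of the other 4 endothelial markers tested, Kdr (1.9), Cdh5 (1.51) and Gpihbp1 (1.51) were higher there and Egfl7 (-0.62) was not called. Kdr, Cdh5 and Gpihbp1 entered through the tumor libraries alone, so that they too could differ in 1 direction only.

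TREM2 needs an adaptor and kinases to signal. The list of TREM2 signalling held 15 genes, among them the related receptor genes Trem1, Trem3 and Treml4. Of the 15, 4 were higher and 2 lower in tumor than in splenic CD45+ cells and 9 were not called (median log2 0.4). The adaptor gene Tyrobp was higher, at 2672 ± 527 FPKM (SD, n = 4) against 486 ± 265 FPKM (SD, n = 3), while the kinase gene Syk was not called (log2 -0.81, adjusted p = 0.192). Higher too was Adam17, a sheddase that releases the TREM2 ectodomain (log2 1.46 ± 0.32, adjusted p = 0.00446). Trem3 (-1.85 ± 0.3) and the other sheddase gene Adam10 (-1.17 ± 0.17, adjusted p = 6.99e-04) were lower. Within the spleen, 14 of the 15 were higher in CD45+ than in CD45- cells and 0 lower (median 3.04), with Trem3 (4.69) and Tyrobp (4.65) first. Through the CD45+ libraries alone, 5 of the 15 entered this comparison. Of all genes tested, 50.5% were called higher within the spleen and 37.7% in tumor against splenic CD45+ cells. Tyrobp thus stood at a mean of 486 FPKM in splenic CD45+ cells in which Trem2 stood at 1.63 FPKM.

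Lysosomal genes had the highest share of higher calls in the tumor among the 8 pathway lists. Beside genes of lipid breakdown, their list held the membrane protein genes Lamp1, Lamp2 and Cd63 and the protease genes Ctsd and Ctsb. Of 15, 14 were higher and 0 lower in tumor than in splenic CD45+ cells (median log2 2.44, beside 0.2 for all genes), with Cd63, a lysosomal membrane tetraspanin, at 850 ± 49.8 against 49.6 ± 29 FPKM. All 15 were higher in the tumor than in splenic CD45- cells, a comparison in which 67.5% of all genes were called higher. Within the spleen 11 of the 15 were higher in CD45+ cells and 0 lower (median 1.55), beside 50.5% of all genes called higher. In each of these comparisons, 2 of the 15 entered through the tumor or the CD45+ libraries alone.

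Uptake receptors other than the members were divided. Among 13 tested, 6 were higher and 2 lower in tumor than in splenic CD45+ cells (median log2 1.06). Stab1, a receptor that clears modified lipoproteins and matrix fragments, stood at 111 ± 11.7 against 0.0667 ± 0.0551 FPKM, and the macrophage sialomucin Cd68 at 925 ± 84.3 against 56.5 ± 63.8 FPKM. The HDL receptor gene Scarb1 was lower (14.6 ± 1.42 against 37.8 ± 16.1 FPKM), as was Olr1, the oxidized LDL receptor gene (0.34 ± 0.152 against 1.83 ± 0.729 FPKM). Within the spleen, 8 of 10 tested were higher in CD45+ cells and 0 lower, and against splenic CD45- cells 10 of 11 were higher in the tumor and 1, Scarb1, lower. Of these receptors, 3 of the 10 entered through the CD45+ libraries alone and 4 of the 11 through the tumor libraries alone. Stab1 also entered the comparison with splenic CD45+ cells through the tumor libraries alone.

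Among the other carriers of fatty acids and sterols, 6 of 10 tested were higher and 0 lower in tumor than in splenic CD45+ cells (median log2 1.5). Pltp, the phospholipid transfer protein gene, led them (375 ± 96.7 against 15.7 ± 20.3 FPKM, log2 5.31 ± 0.8, adjusted p = 7.27e-04), followed by Fabp3, which encodes the heart-type fatty acid binding protein (6.25 ± 1.11 against 0.127 ± 0.11 FPKM). Within the spleen all 6 tested were higher in CD45+ cells, and all 10 tested were higher in tumor than in splenic CD45- cells. Of these carriers, 1 of the 6 entered through the CD45+ libraries alone and 5 of the 10 through the tumor libraries alone. Against splenic CD45+ cells, 2 of the 10, with Fabp3 among them, entered through the tumor libraries alone.

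Genes of cholesterol export and of its sterol-sensing control were called in both directions. Of 11 genes of efflux and of the sterol receptor LXR, 3 were higher and 2 lower in tumor than in splenic CD45+ cells, and 6 were not called (median log2 0.74). Ch25h, the gene of cholesterol 25-hydroxylase, was at 196 ± 45.2 against 0.01 ± 0.0173 FPKM, and Abca1, the cholesterol exporter gene, at 25.1 ± 0.467 against 4.16 ± 3.67 FPKM. Abcg1, the other exporter gene called higher, had a log2 difference of 1.62 (adjusted p = 0.0482). Lower were Lpcat3 (15.4 ± 2.38 against 63.6 ± 33.3 FPKM), which remodels phospholipids, and Abca7 (7.23 ± 0.636 against 25.6 ± 1.73 FPKM). Within the spleen 4 of 8 tested were higher in CD45+ cells and 1 lower, and against splenic CD45- cells 7 of 11 were higher in the tumor and 3 lower. Of these genes, 3 of the 8 entered through the CD45+ libraries alone and 6 of the 11 through the tumor libraries alone. Ch25h also entered the comparison with splenic CD45+ cells through the tumor libraries alone.

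Lipid droplet genes moved in opposite directions. Of 13, 5 were higher and 4 lower in tumor than in splenic CD45+ cells, and their median of 0.15 was close to the 0.2 of all genes. Higher were Hilpda, an inhibitor of triglyceride lipolysis (172 ± 26.2 against 5.77 ± 2.77 FPKM, log2 4.77 ± 0.32), and Plin2, the droplet coat protein of macrophages (296 ± 45.9 against 25.5 ± 8.16 FPKM, log2 3.52 ± 0.25). Lower were Mgll, the monoglyceride lipase gene (0.487 ± 0.137 against 54.9 ± 18.5 FPKM, log2 -5.19 ± 0.22), and Acsl1, which activates fatty acids (13.4 ± 2.47 against 51.1 ± 6.72 FPKM). Mgll and Acsl1 were also high in splenic CD45- cells, at 107 ± 5.96 and 70.2 ± 7.07 FPKM. Within the spleen 8 of the 13 were higher in CD45+ cells and 1 lower, and against splenic CD45- cells 10 were higher in the tumor and 3 lower. Of the 13, 3 entered within the spleen through the CD45+ libraries alone. Against splenic CD45- cells, 3 entered through the tumor libraries alone.

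Of 13 lipid-related transcription factor genes tested, 10 were higher and 0 lower in tumor than in splenic CD45+ cells (median log2 1.65). Maf (46.7 ± 2.77 against 4.18 ± 4.61 FPKM), a factor of macrophage differentiation, was among those with the largest differences. Within the spleen 7 of 8 tested were higher in CD45+ cells and 0 lower, and all 13 tested were higher in tumor than in splenic CD45- cells. Of these genes, 3 of the 8 entered through the CD45+ libraries alone and 8 of the 13 through the tumor libraries alone. Pparg, the nuclear receptor that controls Cd36 and Fabp4 in macrophages, was chosen for mention after its values had been seen. It stood at 15.3, 0.83 and 4.5 FPKM in splenic CD45+ and 2.55, 4.97, 5.85 and 5.57 FPKM in tumor libraries, an overlap like that of Fabp4 and Lpl, and its difference was 0.02 (adjusted p = 0.98).

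The last list held partners of osteopontin, galectin-3 and lipoprotein lipase together with the other galectin genes Lgals1, Lgals8 and Lgals9. Of 13 tested, 11 were higher and 2 lower in tumor than in splenic CD45+ cells (median log2 1.67). Lgals1, the gene of galectin-1, reached 5503 ± 1519 against 79.6 ± 50.2 FPKM, and the integrin gene Itgb5 96.2 ± 1.48 against 11.2 ± 14 FPKM. The integrin genes Itga4 (5.29 ± 0.962 against 45.1 ± 11.5 FPKM) and Itgb3 (0.715 ± 0.264 against 4.02 ± 2.27 FPKM) were lower. Within the spleen 7 of 10 tested were higher in CD45+ cells and 0 lower, and 11 of 12 tested were higher and 1 lower in tumor than in splenic CD45- cells. Of these genes, 2 of the 10 entered through the CD45+ libraries alone and 4 of the 12 through the tumor libraries alone. Against splenic CD45+ cells, 1 of the 13 entered through the tumor libraries alone.

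**Figure D5:**
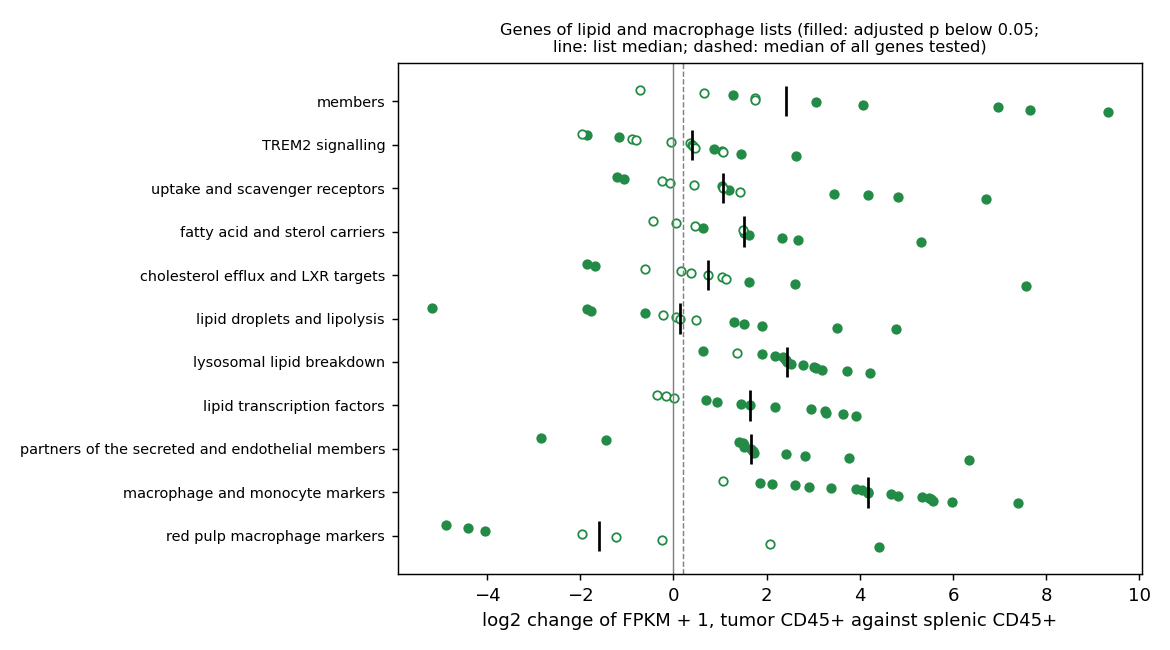
Log2 difference of FPKM + 1 between tumor CD45+ and splenic CD45+ cells for each tested gene of the members, 8 pathway lists and 2 macrophage lists, filled where called at an adjusted p below 0.05. The dashed line marks the median of all genes (0.2). Lysosomal genes (median 2.44) and macrophage markers (4.18) lie almost wholly to its right, and lipid droplet genes (0.15) lie on both sides.

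The genes most like each member over the 10 libraries were sought among 6981 other genes that reached 10 FPKM in 3 or more libraries, by the root mean square difference of log2(FPKM + 1) profiles centred on their own mean. Trem2 was most like Ms4a7 (0.34), Folr2 (0.34) and Pf4 (0.37). Spp1 was most like Pf4 and Arg1 (0.57 each) and Cxcl1 (0.66), Msr1 most like Cxcl2 (0.26), Emp1 (0.38) and Plau (0.41), and Lgals3 most like Lilrb4a (0.28), Cd63 (0.3) and Fcgr3 (0.31). Among the genes closest to Gpnmb were Hspg2 (0.17) and Nes (0.18), which were at 0.00333 to 0.0133 FPKM on average in both splenic groups. The nearest genes to Apoe were Sirpb1a (0.3), Gm2a (0.35) and Sirpb1c (0.36), and those to Fabp4 were Calhm6 (0.26), Gfra2 (0.27) and Cd274 (0.28). Fabp5 was nearest to Ywhae, Prep and Twf1 (0.2 each). Cd36 was nearest to H2bc4 (0.36), Ube2b and H4c9 (0.4 each), and Lpl to Stk17b (0.38), Arhgef1 (0.41) and Macf1 (0.43). These measures describe the same 10 libraries and carry no test. Among the members themselves, Trem2 and Msr1 were the closest pair (0.56).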

How the data were processed

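For every library the authors deposited a table that lists 61685 RefSeq transcript models with 1 value each. The deposited values were read as FPKM because they had 2 decimals and, weighted by transcript length, summed to between 971633 and 1174331 in every library. Only the 24850 models with a length at hand entered this sum, so it is a rough check of the unit. RNA was extracted with TRIZOL and made into libraries by a sequencing company, per the labels' protocols, and per the submitters' processing notes the build was GRCm38.p6. The aligner, quantification program and use of strand were not given in the sources used here.

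From the deposited values, 60179 models carried a gene symbol in the reference tables and were summed to 17606 genes. The 1506 models without a symbol held 0.422% to 1.06% of the summed FPKM and were left out. Of the models, 1843 were numbered copies, which entered the sums. In genes of 1 model and 1 copy, 40.8% of the lowest values (those under 1.5 fragments) lay under 0.7 fragments, against 11.1% in genes of 1 model. Fragments divided between copies would give such a pattern. The genes of 1 model were limited to short transcripts and those with a copy were not. Transcript length and rounding to 2 decimals can therefore add to the contrast. Depth per library was taken from the step between the lowest values, which is worth 1 fragment.

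Differences were tested with limma 3.58.1 in R 4.3.3 with an intensity-dependent prior variance, only the 2 groups compared in each fit, no covariate and a pseudocount of 1, over genes that reached 1 FPKM in 3 or more libraries. Adjusted p-values are Benjamini-Hochberg values over all genes tested. Alternatives changed the pseudocount, the filter, the scaling, the gene sums, the libraries and the fit. The fits were also run on simulated data with the same spread for every gene and group. The spread of these libraries differs between groups, so that run does not show how the tests perform here. Python 3.11.15 with pandas 2.3.3 and matplotlib 3.10.9 served for the rest.

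The members and the 8 pathway and 13 marker lists were chosen with earlier results of these data known, and no list was tested as a set. Named are all 10 members and, from a pathway list, the 2 genes with the largest change in each direction among those called, and from a marker list the most abundant or defining genes. For likeness, 3 genes are named per member. Syk, Abcg1 and the single endothelial and platelet markers were chosen for mention after their values had been seen. A few genes that these rules pick are not reported here. Fabp2 and Plin1 had no value and were not analysed here.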

Additional observations from a re-analysis of the deposited data

Results flagged for a closer look

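In 5 of the 10 members, tumor replicate 1 lay far from the other 3 tumor CD45+ libraries, measured as its gap to the nearest of them divided by the range of the group, which exceeded Dixon's critical value at the 95% level for groups of 4. Trem2 was highest there at 717 FPKM (0.941), Apoe at 447 FPKM (0.97) and Lgals3 at 1988 FPKM (0.885). Lpl was lowest there at 0.66 FPKM (0.965) and Gpnmb at 4.54 FPKM (0.884). Chance marks about 1 in 20 groups of 4 libraries that are all equally alike. That rate cannot be used here, since tumor replicates 2 to 4 differed from each other by 1.15 to 2 times the counting noise. Replicate 1 differed from them by 8.8 to 11.3 times. The share of all genes beyond the same critical value was not counted, so the 5 are not shown to be particular to the members. All 5 values come from the same library, which also held more globin RNA (10.4% of summed FPKM, against 1.8% to 1.87% in tumor replicates 2 to 4). The part of the globin RNA or of the library in these values was not tested.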

How the results depend on the processing

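Between tumor and splenic CD45+ cells, Trem2, Gpnmb, Spp1, Msr1 and Lgals3 were called higher in all 19 alternatives. Members called lower numbered 1 (Lpl) without splenic CD45+ replicate 2 and without both libraries that stand apart. With tumor replicates 2 to 4 averaged into 1, an alternative chosen after seeing the data, 4769 genes were called instead of 7313. Leaving out 1 library at a time gave 6327 to 7949 genes, 6 to 8 members higher and 0 to 1 lower.

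Within the spleen, members called lower numbered 0 with no filter on low values. Leaving out 1 library gave 3023 (without splenic CD45+ replicate 1) to 5152 genes called, 2 to 3 members higher and 0 to 1 lower. Fabp5 was not called with trimmed-mean (adjusted p = 0.0552) or median-ratio (0.0743) scaling. The log2 difference of Spp1, not called, reversed to -0.08 with trimmed-mean scaling, -0.13 with median-ratio scaling, and -0.01 and -0.12 without splenic CD45+ replicates 1 and 3. Over all left-out libraries it ran from -0.44 (without splenic CD45- replicate 2) to 0.57. Between tumor and splenic CD45- cells, members called lower numbered 0 with a common sum and with all 3 groups in 1 fit, which also left Lpl uncalled (adjusted p = 0.0679). Leaving out 1 library gave 9620 to 10175 genes, 8 to 9 members higher and 1 lower. The causes were not tested.

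The share of calls that were higher moved with the scaling. Within the spleen it was 91%, 75.4% with trimmed-mean and 63% with median-ratio scaling, where the median of all genes fell from 0.67 to 0.28 and 0.14. Between tumor and splenic CD45+ cells it was 59.2%, 70.5% with a common sum (median 0.44 instead of 0.2) and 40.7% without globin genes (-0.22). A common sum also called Apoe (adjusted p = 0.036), Fabp4 (0.0314) and Cd36 (0.0202) higher. Between tumor and splenic CD45- cells it was 75%, 63.7% with trimmed-mean scaling and 61.5% without globin genes.

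Libraries of the same replicate number did not deviate together (correlations of -0.18 to 0.24). With the replicate number as a block, 4852 genes were called within the spleen, 5573 between tumor and splenic CD45+ cells and 9921 between tumor and splenic CD45- cells. Apoe was then called higher in tumor than in splenic CD45+ cells (1.86, adjusted p = 0.0241), and no other member tested in both fits changed its call. At the implied depth, Trem2 rests on 53.5 fragments or fewer and Gpnmb on 1.32 or fewer in each splenic library, which limits any comparison of the splenic groups.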
